A study of Homo sapiens with 6 samples.

Results

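Adenosine handling in SNU449, an established human liver cancer (hepatocellular carcinoma) line, is described here through 9 genes: ADA, ADK, PNP, NT5E, ENTPD1, DPP4, ADORA1, ADORA2B and SLC29A1. They were selected by symbol from the 60589 genes of the expression table. They were chosen from the pathway with the values of this contrast known, so their values are given as a description and no test is read from them. Of 6 libraries, 3 came from cells given a control siRNA (siControl) and 3 from cells given an siRNA against the spindle checkpoint gene MAD2L1 (siMAD2L1). All are labelled day 3. Both groups were grown in the same medium with serum and antibiotics. All libraries come from this 1 line. The labels used here give no siRNA sequence and leave unsaid whether the replicate numbers mark separate cultures, so the p-values below measure the spread between these libraries, which may be technical.

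Adenosine is made outside the cell when ectonucleotidases strip phosphates from released ATP, and inside it from AMP and from S-adenosylhomocysteine. It acts on 4 G protein-coupled receptors, crosses the membrane through nucleoside transporters, and is removed either by phosphorylation to AMP or by deamination to inosine. Adenosine deaminase also clears deoxyadenosine, and its inherited loss causes severe immunodeficiency because deoxyadenosine nucleotides build up in lymphocytes. In the liver, purine nucleosides are salvaged or broken down to urate, and extracellular adenosine has been studied mainly in inflammation, hypoxia and tumors.

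The unit is TPM, the abundance of a transcript scaled for its length and the library total, so levels of different genes can be set side by side. The read depth behind each value is unknown. MAD2L1 measured 14.5, 13.7 and 13.9 TPM in siControl and 4.47, 0.795 and 2.40 TPM in siMAD2L1 (exact two-sided permutation p = 0.1, the smallest that 3 libraries against 3 allow). The treatment field names MAD2L2 and MAD2L3 for siMAD2L1 replicates 2 and 3, whereas the titles name MAD2L1 throughout. MAD2L2 measured 138 to 150.1 TPM in siControl and 123 to 154 TPM in siMAD2L1, with 154 TPM in replicate 2. Genes above 0 numbered 24056 to 24258 in siControl and 22514 to 23630 in siMAD2L1, and mitochondrially encoded genes took 15.2% to 15.3% and 9.21% to 10.9% of the TPM. On the second principal component (23.4% of the variance), siMAD2L1 replicate 1 stood apart at 39.97, with the other 5 libraries between -24.7 and 4.58. Values without it are given where it moves a result. The part of the library differences in the results below was not tested.

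The cell type label was read against marker genes. Of 8 hepatocyte markers, APOB and TTR were at 0 in every library and ALB lay between 0.122 and 0.451 TPM, so these 3 transcripts were at or near 0. FGB, a fibrinogen chain gene, measured 6.59 to 8.70 TPM in siControl and 1.91 to 3.21 TPM in siMAD2L1 (limma adjusted p = 0.0142), SERPINA1 reached 2.34 TPM and AFP 2.95 TPM. Of the list, 3 of 8 had a mean TPM of at least 1, and the 8 summed to 10.7 to 12.7 TPM in siControl and 4.42 to 9.40 TPM in siMAD2L1. Of 5 epithelial markers, only the keratins KRT8 and KRT18 were abundant. KRT8 measured 217 to 228 TPM in siControl and 154 to 169 TPM in siMAD2L1 (limma adjusted p = 0.0101). KRT18 measured 189 to 200 TPM in siControl and 122 to 138 TPM in siMAD2L1 (limma adjusted p = 0.00661). Over all libraries EPCAM reached at most 0.433 TPM, CDH1 1.47 TPM and KRT19 1.43 TPM. All 5 mesenchymal markers had a mean TPM of at least 1, and their sum, 9335 to 10231 TPM in siControl and 10715 to 11370 TPM in siMAD2L1, was mostly VIM. VIM was higher in every siMAD2L1 library (limma adjusted p = 0.114). ZEB1 measured 2.91 to 3.76 TPM in siControl and 11.8, 5.21 and 6.60 TPM in siMAD2L1 replicates 1 to 3 (limma adjusted p = 0.0638). COL1A1 went the other way, at 116 to 154 TPM in siControl and 90.4 to 106 TPM in siMAD2L1 (limma adjusted p = 0.0566). FN1 and CDH2 had overlapping groups. The leukocyte markers CD3E and NKG7 were at 0 throughout and PTPRC reached at most 0.0600 TPM. The summed level of the leukocyte list, 69.7 to 77.2 TPM in siControl and 129 to 150 TPM in siMAD2L1, came mainly from CD68, a lysosomal protein gene that other cells also express. CD68 was higher in every siMAD2L1 library (limma adjusted p = 0.00114). CD14 of the same list lay at 5.24 to 11.3 TPM in siControl and 2.90 to 4.43 TPM in siMAD2L1 (limma adjusted p = 0.0851). The 4 endothelial markers were each under 1 TPM in every library. In bulk RNA, fewer cells with a transcript and less of it per cell cannot be told apart.

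Promoter sequences are shown for ADA, NT5E and PNP, the 3 abundant members whose levels differed most between the groups and in opposite directions. RefSeq (GRCh38.p14) held windows for all 9 members. Each sequence gives the 250 bases before the start site, 5′ to 3′ on the gene's strand. The windows lie at chr20:44651700-44651949 on the minus strand for ADA, chr6:85449833-85450082 on the plus strand for NT5E and chr14:20469156-20469405 on the plus strand for PNP. All 3 lie inside the GENCODE 29 gene spans given below, so the RefSeq start sites used are downstream of the 5′ ends of those spans. Capitals mark matches, on either strand, to the GC box GGGCGG, the CCAAT box CCAAT, the TATA box TATAA and the cAMP response element half-site TGACG. The E-box CACGTG and the E2F site TTTGGCGC were also searched and had no match in these 3 windows.
ADA: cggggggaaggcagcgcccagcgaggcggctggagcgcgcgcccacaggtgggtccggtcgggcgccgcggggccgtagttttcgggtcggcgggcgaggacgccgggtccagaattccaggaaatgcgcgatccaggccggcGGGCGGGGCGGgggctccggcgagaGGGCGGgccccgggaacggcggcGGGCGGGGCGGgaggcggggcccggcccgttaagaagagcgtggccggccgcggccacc
NT5E: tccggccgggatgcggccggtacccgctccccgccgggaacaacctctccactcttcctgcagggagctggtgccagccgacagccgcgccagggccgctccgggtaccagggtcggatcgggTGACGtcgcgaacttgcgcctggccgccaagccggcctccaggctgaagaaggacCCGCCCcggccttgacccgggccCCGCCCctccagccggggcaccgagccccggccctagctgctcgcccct
PNP: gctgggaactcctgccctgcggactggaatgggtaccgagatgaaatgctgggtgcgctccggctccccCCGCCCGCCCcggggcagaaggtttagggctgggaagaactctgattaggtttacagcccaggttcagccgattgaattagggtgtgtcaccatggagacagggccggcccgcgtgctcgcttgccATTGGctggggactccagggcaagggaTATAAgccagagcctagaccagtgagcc

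The ADA window was 80.0% G and C, against a median of 58.0% over 35116 promoter windows, and held 5 GC boxes between 107 and 54 bases before the start, as 2 overlapping pairs and 1 on its own. NT5E held 2 GC boxes and a cAMP response element half-site 127 bases before the start. PNP held 2 overlapping GC boxes, a CCAAT box read on the opposite strand 55 bases before the start and a TATA box 28 bases before it. Of all windows, 42.6% held the GC box, 32.0% the CCAAT box, 18.9% the TATA box and 21.2% the half-site. The E-box was in 6.34% and the E2F site in 0.550%. Other members held the same letters. ADK, whose level differed little, had 4 GC boxes in its first window, and ADORA1, ADORA2B, DPP4 and SLC29A1 also held GC boxes. The half-site was also in windows of ADK, ENTPD1, ADORA2B and DPP4. These are matches of letters in a window, with no measurement of binding behind them.

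In siControl the 9 members fell into an abundant set of 6, from NT5E at 108 ± 8.54 TPM (SD, n = 3) down to ADORA2B at 33.0 ± 2.62 TPM, and a scarce set of 3 below 3 TPM. The order was NT5E, SLC29A1, PNP, ADK, ADA, ADORA2B, ADORA1, DPP4 and ENTPD1. SLC29A1 and PNP overlapped in their ranges, as did ADORA1 with DPP4 and DPP4 with ENTPD1. ADK and ADA met without crossing, at 50.6 TPM in the lowest ADK library and in the highest ADA library. In siMAD2L1 the order was NT5E, PNP, SLC29A1, ADK, ADORA2B, ADA, DPP4, ENTPD1 and ADORA1, and only the last pair overlapped. ADA thus stood above ADORA2B in every siControl library and below it in every siMAD2L1 library.

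**Figure D1:**
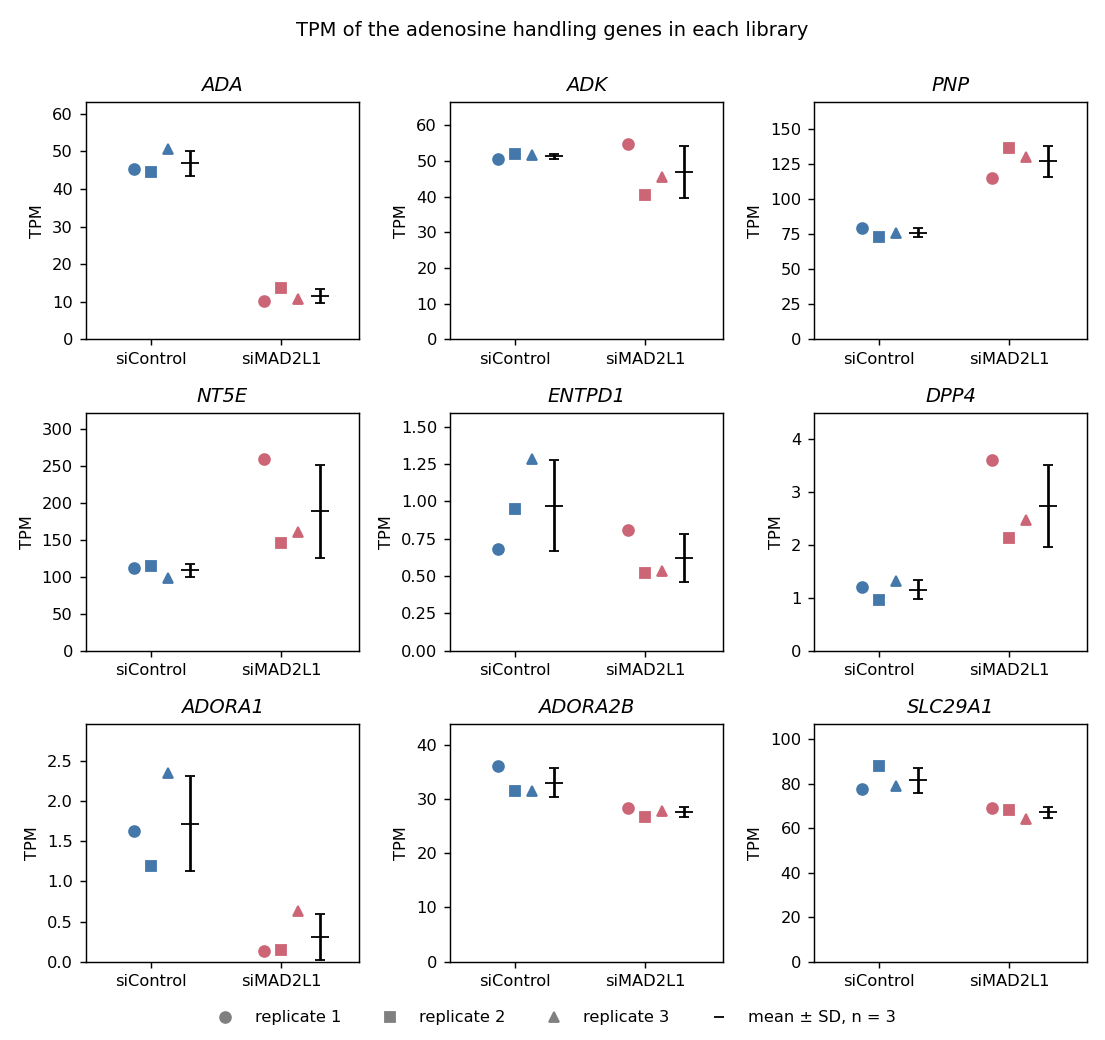
TPM (linear axes from 0) of the 9 adenosine handling genes in the siControl and siMAD2L1 libraries; symbols are replicates 1 to 3 and bars the mean ± SD (n = 3). The ADA panel shows siMAD2L1 at 10.3 to 13.7 TPM under siControl at 44.4 to 50.6 TPM, and NT5E and DPP4 are highest in siMAD2L1 replicate 1.

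Adenosine deaminase showed the widest gap among the abundant members. ADA (ENSG00000196839, minus strand, chr20:44619522-44652233, GENCODE 29 on GRCh38) measured 45.3, 44.4 and 50.6 TPM in siControl and 10.3, 13.7 and 10.8 TPM in siMAD2L1. The groups lay far apart, and the lowest siControl library held more than the 3-fold amount of the highest siMAD2L1 library. The means were 46.8 ± 3.34 and 11.6 ± 1.85 TPM (SD, n = 3 each), so siMAD2L1 stood at 24.9% of siControl. On the log2(TPM + 1) scale the difference was -1.93 (SE 0.129), and 13 of 14790 tested genes had a more negative one. It lay between -2.04 and -1.85 with any library left out and was -1.83 with upper-quartile scaling. With TPM recomputed without mitochondrial genes and the 20 most abundant, it was -1.995. The siMAD2L1 library with the least MAD2L1 (replicate 2, 0.795 TPM) had the most ADA of the group (13.7 TPM), and the one with the most MAD2L1 (replicate 1, 4.47 TPM) had the least ADA (10.3 TPM). This order rests on 3 libraries and was not tested.

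ADA overlaps PKIG, a protein kinase A inhibitor gene on the opposite strand, by 46 exonic bases, and the strand setting of the counting is not given. PKIG lay between 71.4 and 95.2 TPM over the libraries. The other deaminase genes were scarce, and are named outside the rule for named genes, with their values known. ADAL, an ADA-like enzyme, measured 4.98, 6.54 and 3.12 TPM in siControl and 4.90, 4.03 and 2.98 TPM in siMAD2L1, with overlapping groups (log2 difference -0.22, limma adjusted p = 0.640). ADA2, the secreted deaminase of myeloid cells, did not exceed 0.691 TPM in any library. ADA made up 89.8% ± 3.15 of the summed TPM of the 3 genes in siControl and 72.3% ± 6.19 in siMAD2L1 (SD, n = 3 each). This is a share of transcripts, and the activity of the 3 enzymes on adenosine was not measured.

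Adenosine kinase, which returns adenosine to AMP and competes with the deaminase for it, differed little. ADK (ENSG00000156110, plus strand, chr10:74151185-74709303) measured 50.6, 51.9 and 51.7 TPM in siControl and 54.8, 40.4 and 45.5 TPM in siMAD2L1. The siControl libraries nearly coincided and lay inside the siMAD2L1 range. The log2 difference was -0.14 (SE 0.117), and -0.26 without siMAD2L1 replicate 1, which was the 1 siMAD2L1 library above siControl. The amount of ADA per ADK was 0.909 ± 0.0625 in siControl and 0.255 ± 0.0774 in siMAD2L1 (ratio of TPM, SD, n = 3 each).

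Purine nucleoside phosphorylase, which acts after the deaminase and cleaves inosine and guanosine to free bases, lay on the other side. PNP (ENSG00000198805, plus strand, chr14:20468954-20477094) measured 79.2, 72.9 and 75.8 TPM in siControl and 114.9, 136 and 129.7 TPM in siMAD2L1. Every siMAD2L1 library was above every siControl library. The mean was 1.67 times that of siControl, with a log2 difference of 0.73 (SE 0.0879) that ranged from 0.68 to 0.80 with any library left out. ADA per PNP measured 0.572, 0.609 and 0.668 in siControl and 0.0898, 0.101 and 0.0834 in siMAD2L1. The groups were far apart in this ratio, and the 3 siMAD2L1 values were close together.

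**Figure D2:**
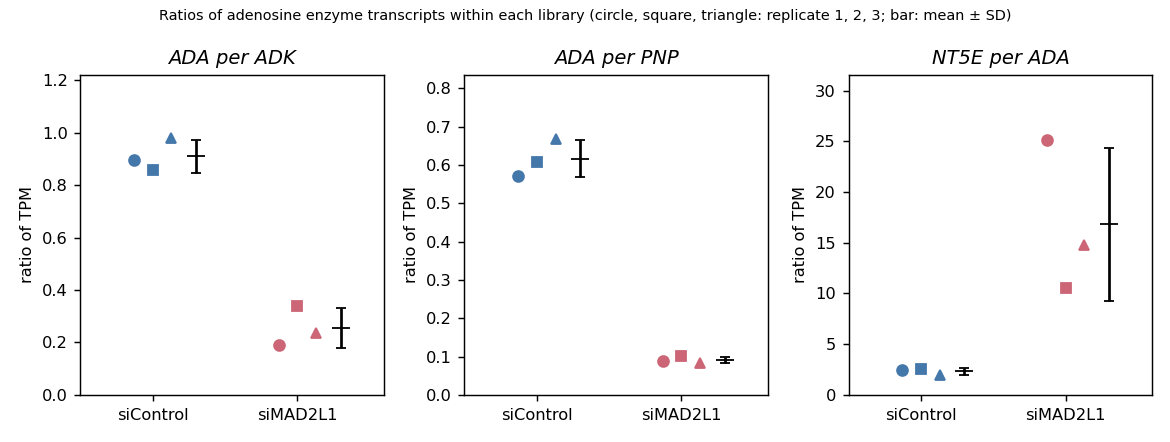
Ratios of TPM within each library for ADA per ADK, ADA per PNP and NT5E per ADA (linear axes from 0; symbols are replicates 1 to 3, bars the mean ± SD, n = 3). ADA per PNP goes from a mean of 0.616 to 0.0914, and NT5E per ADA from 2.33 to 16.8 with a wide spread in siMAD2L1.

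The enzymes that make adenosine outside the cell were unequally expressed. NT5E (ENSG00000135318, plus strand, chr6:85449584-85495791) encodes the ectonucleotidase CD73, which turns AMP into adenosine. It measured 111, 115 and 98.7 TPM in siControl and 260, 145 and 159.8 TPM in siMAD2L1. The groups did not overlap, but replicate 1 was far above the other siMAD2L1 libraries. The log2 difference was 0.74 (SE 0.201), 0.49 (SE 0.0885) without replicate 1 and 1.26 in replicate 1 alone. NT5E per ADA was 2.46, 2.59 and 1.95 in siControl and 25.2, 10.5 and 14.8 in siMAD2L1.

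ENTPD1 (ENSG00000138185, plus strand, chr10:95711779-95869695) encodes CD39, the ectonucleotidase upstream of CD73 that degrades ATP and ADP. It was near the limit of the table, with 0.682, 0.948 and 1.29 TPM in siControl and 0.808, 0.522 and 0.531 TPM in siMAD2L1. The groups overlapped, and its mean of 0.796 TPM kept it out of the tested genes. Its antisense gene ENTPD1-AS1 shares 454 of the 6975 exonic bases of ENTPD1. It lay at 3.97 to 6.49 TPM, above ENTPD1 in every library. Reads that lie in the shared bases cannot be told apart without a strand setting.

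DPP4 (ENSG00000197635, minus strand, chr2:161992241-162074542) encodes CD26, a surface peptidase that binds adenosine deaminase outside the cell. It measured 1.19, 0.946 and 1.32 TPM in siControl and 3.60, 2.12 and 2.46 TPM in siMAD2L1, without overlap. The log2 difference was 0.78 (SE 0.227), and 0.61 without siMAD2L1 replicate 1. With a pseudocount of 0.1 it was 1.15, since log2(TPM + 1) understates differences at such levels. Per unit of ADA transcript, DPP4 was at 0.0246 ± 0.00283 in siControl and 0.244 ± 0.0984 in siMAD2L1 (SD, n = 3 each).

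The members include 2 receptor genes. ADORA1 (ENSG00000163485, plus strand, chr1:203090654-203167405) encodes the A1 receptor, which inhibits adenylate cyclase through Gi. It measured 1.63, 1.19 and 2.35 TPM in siControl and 0.129, 0.147 and 0.636 TPM in siMAD2L1, without overlap. Its mean over the 6 libraries, 1.01 TPM, passed the filter only through siControl, so a difference was fixed in part by the filter. The log2 difference was -1.06 (SE 0.281) and moved to -2.34 with a pseudocount of 0.1.

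ADORA2B (ENSG00000170425, plus strand, chr17:15944917-15975746) encodes a low-affinity receptor that stimulates adenylate cyclase through Gs. It measured 36.02, 31.5 and 31.5 TPM in siControl and 28.4, 26.6 and 27.8 TPM in siMAD2L1. The groups did not overlap, but the gap between them was smaller than the range within siControl. The log2 difference was -0.25 (SE 0.0970), and -0.15 with upper-quartile scaling. With TPM recomputed without mitochondrial genes and the 20 most abundant, it was -0.30. ADORA2A, named here after its values were seen, measured 23.4, 27.6 and 24.5 TPM in siControl and 14.1, 19.9 and 18.7 TPM in siMAD2L1 (log2 difference -0.51, limma adjusted p = 0.0682). ADORA3 was listed at 0 in all libraries. Of the summed TPM of ADORA1, ADORA2A and ADORA2B, ADORA2B held 55.1% ± 3.51 in siControl and 60.9% ± 5.09 in siMAD2L1 (SD, n = 3 each).

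SLC29A1 (ENSG00000112759, plus strand, chr6:44219505-44234151) encodes ENT1, the equilibrative transporter that carries adenosine across the membrane in either direction. The table joins its identifier to that of a locus from transcript assembly. It measured 77.8, 87.8 and 78.9 TPM in siControl and 68.9, 68.4 and 64.3 TPM in siMAD2L1. Every siMAD2L1 library was below every siControl library, at a log2 difference of -0.27 (SE 0.0833), and of -0.17 with upper-quartile scaling. With TPM recomputed without mitochondrial genes and the 20 most abundant, the log2 difference was -0.32.

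**Figure D3:**
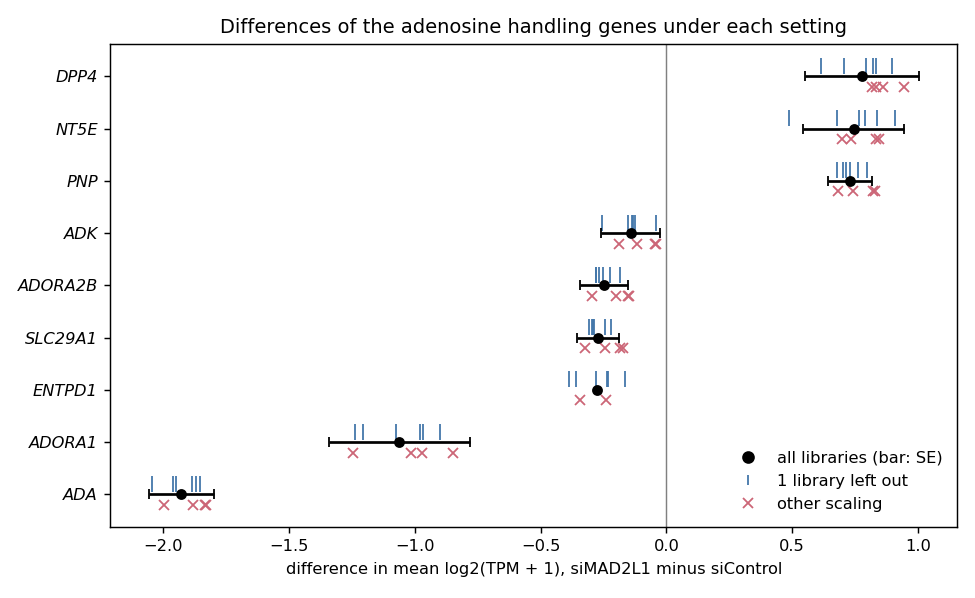
Difference in mean log2(TPM + 1), siMAD2L1 minus siControl, for the 9 genes (black point, bar ± SE; ENTPD1 lies under the filter and has no SE), with the value when 1 library is left out (blue ticks) and under 4 other scalings (red crosses; 2 for ENTPD1). ADA sits near -1.93 with all its alternatives left of -1.8, and PNP, NT5E and DPP4 lie right of 0.

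Across the members, 7 of 9 had groups that did not overlap, 3 of them higher and 4 lower in siMAD2L1. Over all tested genes 32.8% did not overlap, 11.3% all higher and 21.5% all lower. Of the 9, 8 passed the filter of a mean TPM of at least 1. Of these 8, ADA (lower) and PNP (higher) had an adjusted p under 0.05 when limma was fitted to all 14790 genes, where 9.78% of genes did, 3.55% higher and 6.23% lower. Which of the other members passed depended on the setting, as with NT5E, which passed without siMAD2L1 replicate 1 or 2. Since the members were chosen with this contrast known, nothing is read from these counts.

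The other adenosine and purine genes were taken from 8 lists by pathway role, 117 genes in all, of which 67 passed the filter. The lists were drawn up with earlier results of these data known, so their counts are a description. In limma with Benjamini-Hochberg adjustment over all genes, 7 of the 67 rose, 7 fell and 53 did not pass. That is 20.9%, against 9.78% of all tested genes. Their median log2 difference was -0.08, the same as over all tested genes (-0.08). With a library left out the count of calls was 2, 4 and 3 without siControl replicate 1, 2 or 3 and 16, 8 and 5 without siMAD2L1 replicate 1, 2 or 3. Of the 14 calls, 7 were kept without the filter and 5 without the trend. Those of AMPD3, AK4, NT5C2 and AHCYL1 were kept in both. Over all genes 63.7% of the calls were lower, against 50.5% with quantile normalization, 42.0% with upper-quartile scaling, 44.2% after removal of a trend on transcript length and 73.3% when TPM was recomputed leaving out mitochondrial genes and the 20 most abundant. Among the 67 genes the calls were 8 higher and 2 lower with upper-quartile scaling, 8 and 3 after removal of the length trend and 5 and 8 with the recomputed TPM. The median over all tested genes moved by under 0.1 under each of these scalings.

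**Figure D4:**
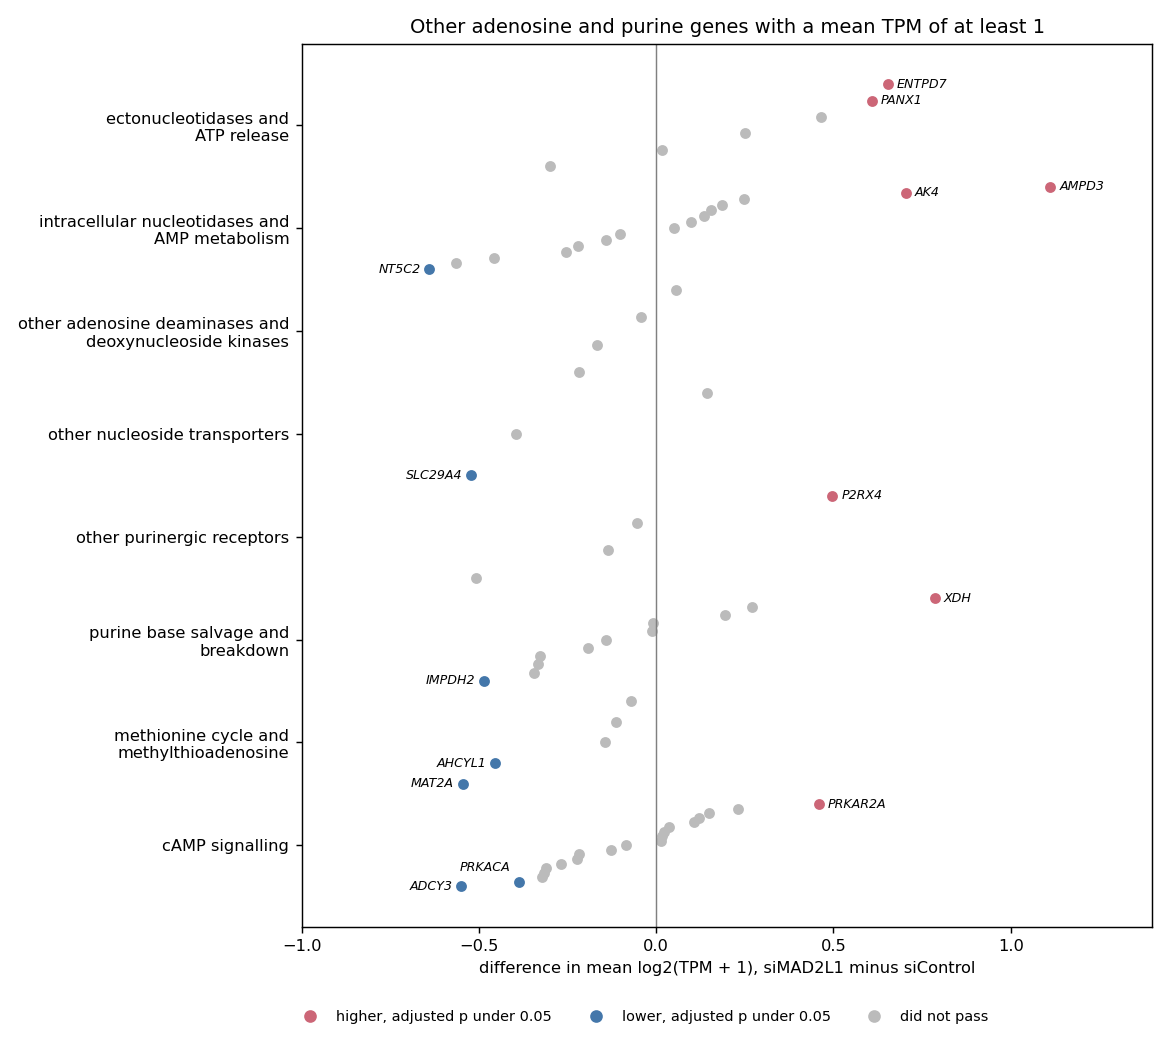
Difference in mean log2(TPM + 1), siMAD2L1 minus siControl, for the 67 tested genes of the 8 related lists, 1 point per gene with the vertical offset for legibility. Red and blue points (7 higher, 7 lower) had a limma adjusted p under 0.05 and are named, with AMPD3 farthest to the right at 1.11.

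Of 15 tested nucleotidases, AMP deaminases and adenylate kinases, 2 rose and 1 fell (median log2 difference 0.05). AMPD3, an AMP deaminase that turns AMP into IMP and so bypasses adenosine, measured 5.42, 4.07 and 3.80 TPM in siControl and 10.9, 10.8 and 10.3 TPM in siMAD2L1. Its levels in siMAD2L1 were close together and all above siControl (log2 difference 1.11, SE 0.157, limma adjusted p = 0.00661). AK4, a mitochondrial adenylate kinase, rose from 93.1 ± 11.4 to 151.7 ± 7.72 TPM (SD, n = 3; 0.70, limma adjusted p = 0.00751). NT5C2, a cytosolic nucleotidase that prefers IMP and GMP, fell from 50.1 ± 5.91 to 31.7 ± 1.77 TPM (-0.64, limma adjusted p = 0.0127). Whichever library was omitted, AMPD3 and AK4 still passed. NT5C2 passed in 5 of those 6 fits and missed without siControl replicate 1 (limma adjusted p = 0.0644).

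Purine base salvage and breakdown gave 1 rise and 1 fall among 11 tested genes (median -0.14). XDH, the oxidase that makes urate, measured 1.83, 1.69 and 1.70 TPM in siControl and 3.93, 4.05 and 3.25 TPM in siMAD2L1 (log2 difference 0.79, limma adjusted p = 0.0337). IMPDH2, which commits IMP to guanine nucleotides, fell from 165 ± 5.70 to 117.9 ± 11.6 TPM (-0.49, limma adjusted p = 0.0163). HPRT1, which salvages hypoxanthine and guanine and is named here after its values were seen, measured 46.6 ± 6.03 and 42.3 ± 6.93 TPM (SD, n = 3; adjusted p = 0.570). XDH lost its call in 5 of 6 fits with a library left out, all but that without siMAD2L1 replicate 1, with adjusted p up to 0.111. IMPDH2 lost it without siControl replicate 1, 2 or 3, with adjusted p up to 0.0775, and also with upper-quartile scaling (adjusted p = 0.167) and after removal of the length trend (adjusted p = 0.0627).

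Among the 6 tested genes of the list of ectonucleotidases and ATP release, which is not confined to surface enzymes, 2 rose (median 0.36). The others, named after their values were seen, did not pass. ENTPD4 and ENTPD6 were higher in every siMAD2L1 library and ENTPD5 overlapped. ENPP1 was lower in every siMAD2L1 library (log2 difference -0.30, limma adjusted p = 0.364). ENTPD7, an intracellular relative of ENTPD1, measured 10.2, 10.2 and 8.38 TPM in siControl and 18.8, 12.5 and 16.2 TPM in siMAD2L1 (log2 difference 0.65, limma adjusted p = 0.0487). PANX1, a channel that releases ATP, rose from 12.9 ± 1.66 to 20.3 ± 3.45 TPM (0.61, limma adjusted p = 0.0466). Both lay just inside the threshold and passed in 1 of 6 fits with a library left out, that without siMAD2L1 replicate 2, with adjusted p up to 0.166 for ENTPD7 and 0.171 for PANX1. Without siMAD2L1 replicate 1 their differences were 0.53 and 0.49. With TPM recomputed without mitochondrial and top genes, their adjusted p were 0.0533 and 0.0519.

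Of the receptors beside the members, 15 of 19 lay under the filter, and 1 of the 4 tested genes rose (median -0.10). P2RX4, an ATP-gated cation channel, measured 34.4, 41.0 and 35.1 TPM in siControl and 51.4, 56.9 and 48.8 TPM in siMAD2L1 (log2 difference 0.50, limma adjusted p = 0.0267). Of 3 tested nucleoside transporters SLC29A4, a transporter of adenosine and monoamines, fell from 18.1 ± 2.20 to 12.3 ± 0.563 TPM (-0.52, limma adjusted p = 0.0382; list median -0.40). P2RX4 lost its call without siControl replicate 1 or 3 and without siMAD2L1 replicate 2 or 3, with adjusted p up to 0.121. SLC29A4 passed only without siMAD2L1 replicate 1 among those fits, with adjusted p up to 0.136, and missed with upper-quartile scaling (adjusted p = 0.0899), quantile normalization (0.0622) and the length trend removed (0.0577). The concentrative transporters SLC28A1, SLC28A2 and SLC28A3 were all under the filter.

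Of the other deaminases and deoxynucleoside enzymes, 4 were tested and 0 passed in limma, with 0 at an unadjusted p under 0.05 (median -0.11). DGUOK, the mitochondrial deoxyguanosine kinase, measured 64.8 ± 6.59 and 67.3 ± 4.54 TPM, and DCK, the cytosolic deoxycytidine kinase that also phosphorylates deoxyadenosine, 11.9 ± 1.08 and 11.6 ± 2.55 TPM (SD, n = 3 each). Of 5 tested methionine cycle genes, 2 fell (median -0.14). MAT2A, which makes S-adenosylmethionine, went from 61.1 ± 3.65 to 41.7 ± 4.43 TPM (-0.54, limma adjusted p = 0.0186), and AHCYL1, a relative of the enzyme that splits S-adenosylhomocysteine, from 48.9 ± 0.638 to 35.4 ± 1.88 TPM (-0.46, limma adjusted p = 0.0169). AHCY itself, named after its values were seen, measured 220 ± 11.7 and 211 ± 24.4 TPM (adjusted p = 0.693). MAT2A lost its call without siControl replicate 1, 2 or 3 or siMAD2L1 replicate 3 (adjusted p up to 0.0942) and AHCYL1 in all but the fit without siMAD2L1 replicate 1 (up to 0.0901). AHCYL1 also missed with upper-quartile scaling (adjusted p = 0.0770).

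Downstream of the receptors, 1 of 19 tested cAMP signalling genes rose and 2 fell (median -0.08). ADCY3, an adenylate cyclase, measured 29.97, 29.1 and 26.0 TPM in siControl and 17.9, 17.9 and 21.4 TPM in siMAD2L1 (log2 difference -0.55, limma adjusted p = 0.0254). PRKACA, a catalytic subunit of protein kinase A, fell from 44.6 ± 1.07 to 33.8 ± 0.984 TPM (-0.39, limma adjusted p = 0.0269). PRKAR2A, a regulatory subunit, rose from 23.1 ± 0.0490 to 32.3 ± 3.17 TPM (0.46, limma adjusted p = 0.0322). Each lost its call without siControl replicate 1, 2 or 3, with adjusted p up to 0.121 for ADCY3, 0.127 for PRKACA and 0.126 for PRKAR2A, and also without siMAD2L1 replicate 2 for ADCY3, replicate 2 or 3 for PRKACA and replicate 3 for PRKAR2A. The falls of ADCY3 and PRKACA also missed with upper-quartile scaling (adjusted p = 0.0995 and 0.151) and after removal of the length trend (adjusted p = 0.0616 and 0.0766).

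The genes whose levels followed ADA most closely were found by Pearson's r on log2(TPM + 1) over the 6 libraries, among the 7391 genes whose mean was 10 TPM or more. This is a description, since the groups shared by all points set most of it. Pearson's r also takes no account of the size of a difference. The log2 differences were -2.25 for ID3, -0.41 for TAB1, which was not called, -0.73 for PTTG1, -0.48 for SOCS3 and -0.87 for IFI35. That of ADA was -1.93. ID3, whose protein blocks DNA binding by helix-loop-helix partners, had r = 0.998, followed by TAB1 (0.998), PTTG1 or securin (0.997), SOCS3 (0.997) and IFI35 (0.996). ID3 measured 121, 112 and 130 TPM in siControl and 21.7, 27.7 and 24.8 TPM in siMAD2L1, with the highest siControl library and the highest siMAD2L1 library the same as for ADA. The most opposite patterns were those of PHLDA1 (r = -0.999), the phosphate transporter gene SLC20A1 (-0.997) and ZNRF1 (-0.996). Their log2 differences were 0.59, 0.60 and 0.31. With a library left out, TAB1, SOCS3 and ZNRF1 each passed in 1 of 6 fits, that without siMAD2L1 replicate 1.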

How the data were processed

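The deposited table holds TPM values made by the authors, 1 column per library, and each column has the same sum. The submitters' processing notes name fastp, HISAT2, DESeq2 1.16.1 and build hg38. How reads were counted, on which annotation and with which strand setting is not stated there. TPM keeps no read depth, and counting error cannot be computed. Titles set the groups, and columns matched by treatment and number. Gene positions and exonic lengths came from GENCODE 29 (GRCh38), which held 57974 of 60232 Ensembl identifiers.

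Values were taken as log2(TPM + 1). The 14790 genes averaging 1 TPM or more were fitted with limma 3.58.1 (intensity trend, R 4.3.3), siMAD2L1 against siControl without covariates, and a gene was called where its p, adjusted by Benjamini-Hochberg, was under 0.05. SE are the moderated ones of this fit. Members and lists were chosen with earlier results of these data known. Named genes are the members, MAD2L1, MAD2L2, up to 4 called genes per list with the largest difference (otherwise the 2 highest by TPM), and those most like ADA. Alternatives were smaller pseudocounts (0.1, 0.5), the filter dropped or raised to 5 TPM, 3 other scalings, limma without trend, library weights, a replicate block, each library left out and siMAD2L1 replicate 1 alone. Removal of a transcript-length trend was added after seeing the data. Python 3.11.15 and matplotlib 3.10.9 drew the plots.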

Additional observations from a re-analysis of the deposited data

How the results depend on the processing

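All genes called numbered 1446, and 727 without a filter, 952 without a trend, 4860 with library weights and 868 with the replicate block, and with single libraries left out they ranged from 326, when siControl replicate 1 was omitted, to 2422, when siMAD2L1 replicate 1 was. Related genes called numbered 14, and 7 without a filter, 5 without a trend, 25 with library weights, 7 with the replicate block and 7 in siMAD2L1 replicate 1 alone (where the spread comes from siControl only, and the lone library is assumed to vary like it), and 2 to 16 with a library left out. The log2 difference of ADA moved from its main value by less than the replicate SD in all 18 alternatives. A pseudocount of 0.1 gave -0.56 for ENTPD1, -2.34 for ADORA1 and 1.15 for DPP4, and one of 0.5 gave -1.49 for ADORA1. Upper-quartile scaling gave -0.15 for ADORA2B, -0.17 for SLC29A1 and 0.83 for PNP, and removal of the length trend gave -0.15 for ADORA2B and -0.18 for SLC29A1. TPM recomputed without mitochondrial genes and the 20 most abundant gave larger falls, -0.30 for ADORA2B and -0.32 for SLC29A1. In siMAD2L1 replicate 1 alone, ADK was at 0.0893, above 0, NT5E at 1.26, DPP4 at 1.10 and PNP at 0.59. MAD2L1 (-2.22) ranged from -2.61 to -1.80 with a library left out and lost its call without siControl replicate 1, 2 or 3 (adjusted p up to 0.0597). Same-numbered libraries of the 2 groups deviated together with correlations of 0.0190, 0.00898 and 0.0631. Libraries with unlike numbers had correlations between -0.0525 and 0.0336. The highest was that of the libraries numbered 3, while siControl replicate 2 correlated best with siMAD2L1 replicate 1. All were near 0, so the numbers were not taken as pairs. The replicate block kept the calls of 7 of the 14 related genes. The cause of these changes was not tested. TPM gives no depth, so what low values such as those of ENTPD1 and ADORA1 can show is unknown.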
